A study of Oryza sativa with 20 samples.

Results

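Rice leaves fed on by Cnaphalocrocis medinalis, the rice leaf folder, for 24 h were compared directly with leaves fed on for 6 h. The 4 libraries titled 24 h and the 4 titled 6 h were chosen by their labels and make up 8 of the 20 RNA-seq libraries of the series. All groups shared the rice strain (Minghui 63), the plant age (5 weeks), the Parafilm bag around the leaf and the moment of harvest. In both feeding groups 1 larva of the 3rd instar, starved for 2 h and taken from a colony reared on maize seedlings, was confined on the second leaf from the top, for the last 6 h or the last 24 h before harvest. The 0 h group carried the bag without a larva, and the 1 h and 12 h groups were treated like the 6 h and 24 h groups. The leaf tissue of 5 plants was pooled for each library, so each value is a mean over 5 plants and the spread between libraries is a spread between such pools. Whether the tissue carries the marker genes of a leaf was not checked, because the sources used here do not annotate the identifiers of such markers.

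Chewing of a rice leaf is read by the plant through calcium sensors, mitogen-activated protein kinases and WRKY transcription factors, and it sets off the synthesis of jasmonic acid (JA). JA is made from linolenic acid in the plastid by lipoxygenase (LOX), allene oxide synthase (AOS) and allene oxide cyclase (AOC). In the peroxisome it is completed by 12-oxophytodienoate reductase (OPR), OPC-8:0 CoA ligase (OPCL) and the beta-oxidation enzymes acyl-CoA oxidase (ACX) and 3-ketoacyl-CoA thiolase (KAT). JAR enzymes join JA to isoleucine, and the conjugate brings about the breakdown of the JAZ proteins, repressors that hold back transcription factors of the MYC2 type. JAZ genes are themselves switched on by JA signaling, which makes their transcripts a common readout of it.

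The 6 h libraries held 18510153 to 18708539 fragments on genes, and the 24 h libraries 18897841 to 22090180. The 10 most abundant genes took a mean of 7.76% of the fragments at 6 h (7.2 to 8.52%) and 9.54% at 24 h (9.03 to 10.21%), without overlap between the groups (two-sided exact permutation test, n = 4 per group, p = 0.0286, the smallest that 70 splits allow). Values were deposited as FPKM, fragments relative to transcript length and library total, so a larger share for a few genes leaves a smaller share for the rest. The median deviation of a library from the gene means was 0.008 to 0.067 on the log2 scale at 6 h and -0.06 to -0.027 at 24 h (exact permutation test, p = 0.0286). Whether the share of the 10 genes accounts for this difference was not tested. Every comparison of loci was therefore run on FPKM as deposited and on FPKM divided by median-of-ratios factors. These factors bring the libraries to a common median and averaged 1.083 at 6 h and 1.008 at 24 h. A difference or interval given without its scale is that of FPKM as deposited.

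Of 37830 OS loci (identifiers of the IRGSP-1.0 annotation that begin with OS), 29495 were above 0 in at least one library and 20343 passed the filter on low values and were tested. The test was limma-trend on log2(FPKM + 1), and a locus was called at a false discovery rate (FDR, Benjamini-Hochberg) under 0.05 with no minimum fold change. On FPKM as deposited 5575 loci (27.4%) differed between 24 h and 6 h, 1827 of them higher at 24 h (8.98%) and 3748 lower (18.4%). With scaling the split turned over, to 2790 higher (13.7%) and 2454 lower (12.1%) among 5244 called loci (25.8%). The median difference over the OS loci was -0.076 as deposited, with 38.3% of them higher at 24 h, and 0.007 with scaling, with 51.1% higher. In bulk leaf tissue, fewer cells of a type and less RNA per cell cannot be told apart.

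Loci called in the same direction without and with scaling are described as called both ways, and they numbered 4281 (21.0%), 1827 higher at 24 h (8.98%) and 2454 lower (12.1%). No locus was called in opposite directions. A further 2257 loci (11.1%) were called on one scale only, 1294 of them lower as deposited (6.36%) and 963 higher with scaling (4.73%). Fold limits here and below are on log2(FPKM + 1), so at low FPKM they stand for a larger fold difference in FPKM itself. Loci that were called on neither scale and whose 95% interval lay inside a 2-fold difference on both are described as level. They were the majority, 13073 (64.3%), which left 2989 (14.7%) that were neither called both ways nor level. All 4 libraries of 24 h lay beyond all 4 of 6 h for 6259 loci (30.8%). By these limits large differences were few. Called both ways and past 2-fold were 153 loci higher at 24 h (0.752%) and 308 lower (1.51%), and past 4-fold 17 (0.0836%) and 34 (0.167%). The share called both ways was 8.1% of loci with a mean under 1 FPKM and 35.5% of those at 100 FPKM and over, where 263 were higher at 24 h and 156 lower. By the chromosome number in the identifier, the share ran from 18.6% on chromosome 6 to 23.5% on chromosome 3.

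**Figure D1:**
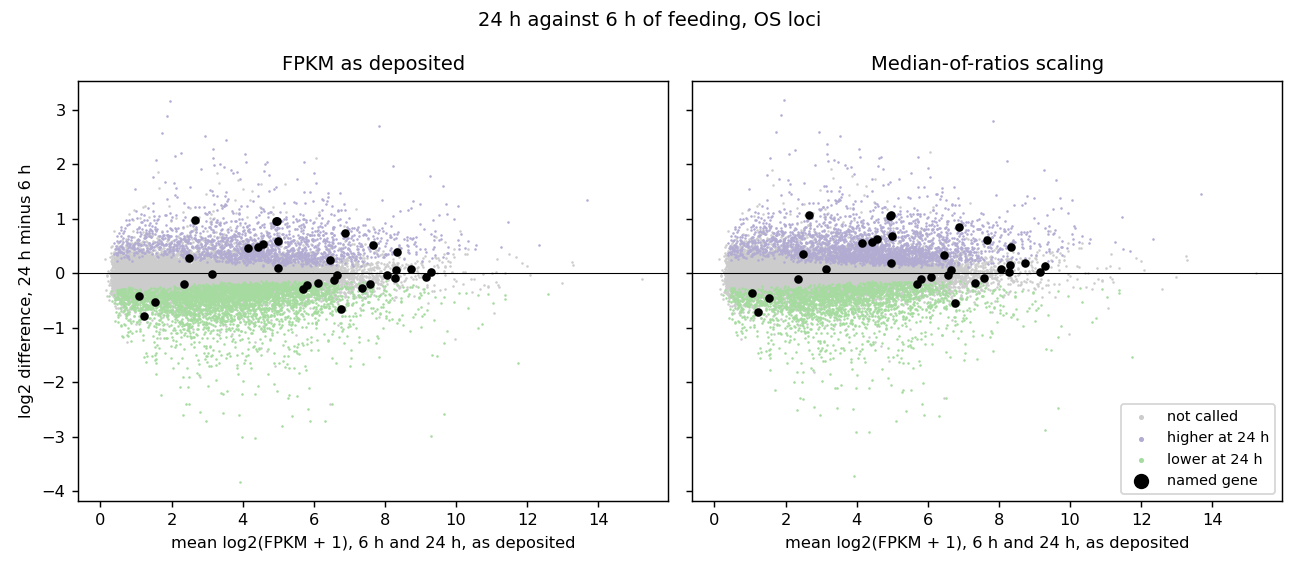
The log2 difference between 24 h and 6 h (vertical axis, 24 h minus 6 h) for each of 20343 OS loci, on FPKM as deposited (left) and after median-of-ratios scaling (right). The horizontal axis of both panels is the mean log2(FPKM + 1) of the 8 libraries after median-of-ratios scaling, although its label reads as deposited. Coloured points were called at an FDR under 0.05 and black points are the named genes. Called loci lie on both sides of 0, with 1827 higher and 3748 lower at 24 h on the left and 2790 and 2454 on the right.

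The named genes number 33 and comprise calcium sensors, a kinase and WRKY factors besides genes of the JA steps described above. Of the 32 tested, 5 were called both ways (15.6%, against 21.0% of all OS loci tested), 4 higher and 1 lower at 24 h. OsWRKY45, the OPCL gene Os03g0132000, the JAR gene Os01g0221000 and the JAZ gene Os09g0401300 were higher at 24 h, and the OPR gene Os01g0369900 was lower. Level were 14, among them AOC, OsWRKY53, the calmodulin gene, MYC2 and 4 JAZ genes. Another 4 were called on one scale only, and 9 were neither called nor bounded within 2-fold. The libraries of the times did not overlap for 8 of the 32, beside 30.8% of all OS loci tested. The median difference of the named genes was 0.01 as deposited and 0.11 with scaling. The JA genes among them are 25, of which 24 were tested, and they are a selection from the pathway, so no count here stands for the pathway as a whole.

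**Figure D2:**
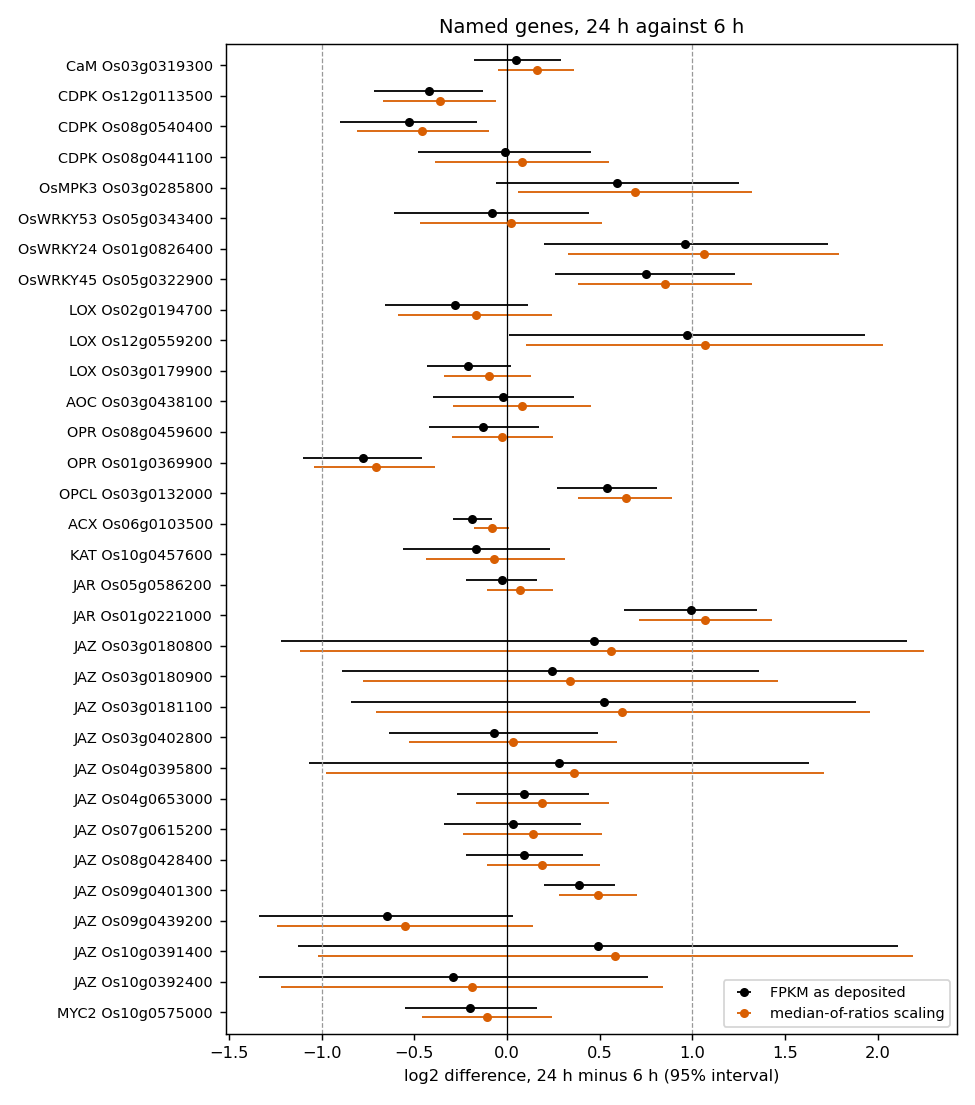
The log2 difference between 24 h and 6 h (horizontal axis, on log2(FPKM + 1)) with its 95% interval for the 32 named genes tested, as deposited (black) and after median-of-ratios scaling (orange). Dashed lines mark a 2-fold difference of FPKM + 1 in either direction. Intervals of 14 genes lie between the dashed lines on both scales without a call, and those of 7 JAZ genes reach beyond a dashed line.

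Calcium sensing was represented by a calmodulin (CaM), the small protein that binds calcium and switches its target proteins. It was also represented by 3 genes that the paper lists as calcium-dependent protein kinases (CDPKs). The CaM gene Os03g0319300 was level, at 309, 377, 313 and 315 FPKM in replicates 1 to 4 of 6 h and 301.5, 372, 403 and 296 FPKM at 24 h. Its difference was 0.05 (95% interval -0.18 to 0.29, FDR = 0.77) as deposited and 0.16 (-0.05 to 0.36, FDR = 0.27) with scaling. The groups overlapped, with 24 h libraries both above and below all those of 6 h. The CDPK gene Os08g0441100 was level as well, with 6.18 to 10.6 FPKM at 6 h and 4.58 to 11.3 at 24 h and a difference of -0.01 (-0.48 to 0.45).

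The other two CDPK genes were weakly expressed and lower at 24 h on the deposited scale alone. Os08g0540400 stood at 2.30, 3.76, 2.61 and 2.01 FPKM at 6 h and at 1.44, 1.22, 1.61 and 1.75 FPKM at 24 h. All 24 h libraries lay below all 6 h libraries, and the difference was -0.53 (SE 0.18, FDR = 0.034) as deposited and -0.46 (FDR = 0.06) with scaling. Os12g0113500 had 1.81, 1.22, 1.33 and 1.65 FPKM at 6 h and 0.952, 1.07, 0.905 and 0.543 FPKM at 24 h, again without overlap, and differed by -0.42 (SE 0.14, FDR = 0.036) as deposited and -0.36 (FDR = 0.084) with scaling. These values rest on 51 to 141 and on 20 to 66 fragments per library. Leaving out a single library ended the deposited call of Os08g0540400 for 5 libraries (6 h replicates 2 and 3 and 24 h replicates 1, 2 and 3, FDR up to 0.12), while without 6 h replicate 4 the gene was called on both scales (-0.62 and FDR = 0.026 as deposited). The deposited call of Os12g0113500 was ended by leaving out any of 4 libraries (6 h replicates 1 and 4 and 24 h replicates 3 and 4, FDR up to 0.12).

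Of the 4 genes of kinase and WRKY signaling, 1 was called both ways (25.0%, against 21.0% of all OS loci tested), and their median difference was 0.67 as deposited and 0.77 with scaling, beside -0.076 and 0.007 over the OS loci. OsWRKY45 (Os05g0322900), a transcription factor known for its part in salicylic acid-dependent disease resistance of rice, was higher at 24 h. It stood at 68.5, 123, 94.2 and 96.4 FPKM at 6 h and at 138, 176, 215 and 119 FPKM at 24 h, so that 3 of 4 libraries at 24 h were above every library at 6 h. The means were 95.6 ± 22.4 and 162 ± 42.4 FPKM (SD, n = 4). The difference was 0.75 (SE 0.23, limma FDR = 0.024) as deposited and 0.85 (FDR = 0.0096) with scaling. The call was lost without 6 h replicate 1 (0.60, FDR = 0.084), without 24 h replicate 2 (0.70, FDR = 0.06) and without 24 h replicate 3 (0.60, FDR = 0.084).

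OsWRKY53 (Os05g0343400), which the paper describes as a suppressor of mitogen-activated protein kinase activity and of rice defense against the striped stem borer, was level. Its libraries held 243, 501, 359 and 292 FPKM at 6 h and 267, 320.1, 416 and 283 FPKM at 24 h, and every 24 h library fell within the range of 6 h. The difference was -0.08 (95% interval -0.61 to 0.44, FDR = 0.84), and the interval with scaling was -0.47 to 0.51. OsWRKY53 was also the more abundant of the pair, with a mean of 349 FPKM at 6 h and 322 FPKM at 24 h beside 143 FPKM at 12 h and 165 FPKM at 0 h.

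OsWRKY24 (Os01g0826400), known in rice aleurone cells as a repressor of gibberellin and abscisic acid signaling, had 10.5, 35.8, 24.9 and 24.7 FPKM at 6 h and 36.4, 39.5, 58.2 and 44.4 FPKM at 24 h. All 4 libraries of 24 h were above all 4 of 6 h. The limma test on the deposited values missed the threshold (0.96, SE 0.36, FDR = 0.062), and with scaling the gene was called (1.06, FDR = 0.035). Without 6 h replicate 2 it was called on both scales (1.19 and FDR = 0.033 as deposited). OsMPK3 (Os03g0285800), a mitogen-activated protein kinase, spread from 12.6 to 48.8 FPKM at 6 h and from 26.9 to 61.5 FPKM at 24 h, and the groups overlapped. Its difference was 0.59 (95% interval -0.06 to 1.25, FDR = 0.18) as deposited and 0.69 (0.06 to 1.32, FDR = 0.11) with scaling. The gene was thus neither called nor bounded within 2-fold. Without 6 h replicate 2, the highest of its group, it was called on both scales (0.89 and FDR = 0.037 as deposited).

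**Figure D3:**
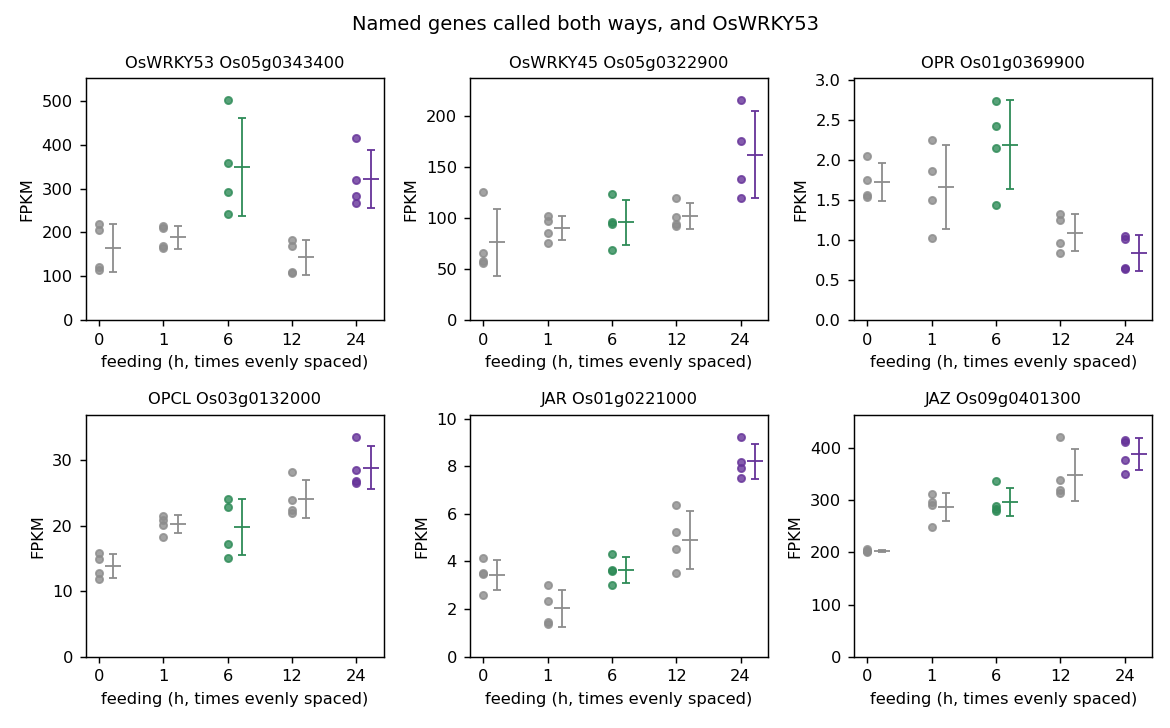
FPKM as deposited at each feeding time (horizontal axis, hours, evenly spaced) for the 5 named genes called both ways and for OsWRKY53, with 4 libraries per time as points and the mean and SD beside them. Libraries of 6 h are green, those of 24 h purple and those of the other times grey. OsWRKY45, OPCL, JAR Os01g0221000 and JAZ Os09g0401300 have higher means at 24 h than at 6 h, OPR Os01g0369900 has a lower one, and the 24 h libraries of OsWRKY53 lie within the range of 6 h.

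Of 10 JA synthesis genes 9 were tested, of which 5 were level, 1 was higher and 1 lower at 24 h on both scales, so that 22.2% were called both ways, a share near the 21.0% of all OS loci tested. LOX oxygenates linolenic acid at the start of the pathway. The LOX gene Os02g0194700 was level, with 149 to 212 FPKM at 6 h and 136 to 174 FPKM at 24 h (difference -0.28, 95% interval -0.66 to 0.11). The LOX gene Os03g0179900 was level with 52.3 to 72.8 and 48.0 to 61.0 FPKM (-0.21, -0.43 to 0.02).

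The third LOX gene listed here, Os12g0559200, stood at 21.3, 22.5, 33.9 and 14.9 FPKM at 6 h. At 24 h it stood at 18.0, 132, 78.7 and 19.996 FPKM. Replicates 2 and 3 of 24 h exceeded every 6 h library, and replicates 1 and 4 lay inside the 6 h range. The difference of 0.97 (95% interval 0.01 to 1.93) was not called (FDR = 0.14 as deposited and 0.10 with scaling). It was called without 24 h replicate 1 (1.39, FDR = 0.029) and without 24 h replicate 4 (1.34, FDR = 0.045).

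The AOS gene listed here, Os03g0767000, did not pass the filter on low values and was not part of the main test. It had 0.0755 to 0.569 FPKM and 3 to 21 fragments in the 8 libraries. Its means were 0.371 FPKM at 6 h and 0.155 FPKM at 24 h, and the fit with no filter did not call it (difference -0.24, SE 0.10, limma FDR = 0.12). AOC (Os03g0438100), the enzyme that closes the ring of the JA precursor, was among the more abundant JA synthesis transcripts and was level. Its values were 206, 370.2, 334 and 240.3 FPKM at 6 h and 197, 341, 351 and 245 FPKM at 24 h, with wide overlap between the times. The means of 288 ± 77.0 and 283 ± 74.7 FPKM (SD, n = 4) differed by -0.02 (95% interval -0.40 to 0.36, FDR = 0.95) as deposited and by 0.08 (-0.29 to 0.45) with scaling. Both were above the 133 ± 14.95 FPKM of 0 h and the 189 ± 14.3 FPKM of 12 h.

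The 2 listed genes of the OPR family, to which the enzyme that reduces the cyclic precursor belongs, parted. Os08g0459600 was level at 83.04 to 135 FPKM at 6 h and 76.4 to 111 FPKM at 24 h (-0.13, 95% interval -0.42 to 0.17). Os01g0369900 was far less abundant and the only named gene called lower both ways. It had 2.74, 2.15, 2.43 and 1.44 FPKM at 6 h and 1.06, 1.02, 0.652 and 0.645 FPKM at 24 h, with no overlap between the groups. The difference was -0.78 (SE 0.15, FDR = 0.001) as deposited and -0.71 (FDR = 0.0027) with scaling, on 33 to 139 fragments per library. On the log2(FPKM + 1) scale the change of such a low gene is understated, and its mean FPKM at 24 h was 0.384 times that at 6 h. The call held without each of the 8 libraries in turn.

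The enzymes that finish JA in the peroxisome also differed from one another. OPCL (Os03g0132000), which activates the precursor with coenzyme A, had 15.1, 24.1, 22.9 and 17.2 FPKM at 6 h and 26.8, 28.6, 33.5 and 26.5 FPKM at 24 h. Every 24 h library was above every 6 h library, and the means were 19.8 ± 4.34 and 28.8 ± 3.25 FPKM (SD, n = 4). The difference was 0.54 (SE 0.13, FDR = 0.0054) as deposited and 0.64 (FDR = 0.00093) with scaling, and the call held without each library in turn. The means at the other times were 13.9 FPKM in the 0 h control, 20.2 FPKM after 1 h and 24.1 FPKM after 12 h, so that 24 h had the highest of the 5.

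The ACX gene Os06g0103500, for the first step of beta-oxidation, had 204, 228, 210.3 and 203 FPKM at 6 h and 177, 200.3, 183 and 181 FPKM at 24 h. All values at 24 h lay below all values at 6 h, by a small margin. It was called lower as deposited (-0.19, SE 0.05, FDR = 0.012) and not with scaling (-0.08, 95% interval -0.18 to 0.01, FDR = 0.22). The fit of the 8 libraries alone (FDR = 0.058) and limma-voom, which uses the same scaling factors, did not call it either. The KAT gene Os10g0457600, for the last step of beta-oxidation, was level, at 57.3 to 107 FPKM at 6 h and 49.1 to 86.5 FPKM at 24 h (-0.17, -0.56 to 0.23).

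Of the 2 listed JAR genes, for enzymes of the family that joins JA to isoleucine, the weaker one differed and the abundant one was level. Os01g0221000 stood at 3.66, 3.02, 3.59 and 4.34 FPKM at 6 h and at 7.91, 7.52, 8.17 and 9.22 FPKM at 24 h. The groups were far apart, with a mean at 24 h of 8.21 ± 0.726 against 3.65 ± 0.537 FPKM (SD, n = 4), a ratio of 2.25. The difference was 0.99 (SE 0.17, FDR = 0.00034) as deposited and 1.07 (FDR = 0.00019) with scaling, the largest on the log2(FPKM + 1) scale among the named genes called both ways. The ratio of means was further from 1 for the OPR gene Os01g0369900, at 0.384. The JAR difference rests on 27 to 87 fragments per library and was between 0.92 and 1.06 without each library in turn. The mean at 0 h, 3.44 FPKM, was close to that at 6 h, and the mean at 12 h lay between, at 4.92 FPKM. Os05g0586200 was level, with 100.3, 120.3, 115 and 85.6 FPKM at 6 h, 98.0, 117, 90.8 and 104 FPKM at 24 h and a difference of -0.03 (95% interval -0.22 to 0.16).

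Of the 12 JAZ genes 1 was higher at 24 h, 4 were level and 7 were neither called nor bounded within 2-fold. The share called both ways was 8.33%, against 21.0% of all OS loci tested, of which 64.3% were level. The median difference over the 12 was 0.16 as deposited and 0.27 with scaling. Os09g0401300 was the one called, with 283, 337, 289 and 278 FPKM at 6 h and 350.0, 412, 415 and 377 FPKM at 24 h and no overlap between the groups. Its difference of 0.39 (SE 0.09, FDR = 0.0048) as deposited and 0.49 (FDR = 0.0015) with scaling held without each library in turn. The means of 297 ± 27.1 and 388 ± 30.8 FPKM (SD, n = 4) stand beside 203 FPKM in the 0 h control, 287 FPKM after 1 h and 348 FPKM after 12 h.

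The 4 level JAZ genes included the most abundant of those listed here. Os03g0402800 had 417, 1020.1, 615 and 522 FPKM at 6 h and 456, 615, 664 and 597 FPKM at 24 h (difference -0.07, 95% interval -0.64 to 0.49). Os07g0615200 had 531, 879, 676 and 546 FPKM at 6 h and 513, 752, 762 and 642 FPKM at 24 h (0.03, -0.34 to 0.40). Os04g0653000 (0.09, -0.27 to 0.44) stood at 374 to 496 FPKM at 6 h and 381 to 519.9 FPKM at 24 h, and Os08g0428400 (0.09, -0.22 to 0.41) at 24.6 to 36.2 and 31.1 to 34.9 FPKM. Their means at 24 h were 0.906 to 1.06 times those at 6 h, while at 0 h the means of Os03g0402800 and Os07g0615200 were 135 and 210.2 FPKM.

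For the other 7 JAZ genes the libraries of one time spread too widely for a call or for a bound within 2-fold. Os03g0180800 ranged from 2.43 to 37.8 FPKM at 6 h and from 3.20 to 78.0 FPKM at 24 h, a coefficient of variation of 76.0% and 96.4%. Its difference of 0.47 had a 95% interval of -1.22 to 2.16. Os04g0395800 ranged from 0.872 to 10.9 FPKM and from 0.601 to 16.3 FPKM (0.28, -1.07 to 1.63), on as few as 11 fragments. Os10g0391400 ranged from 2.59 to 48.0 and from 8.13 to 75.2 FPKM (0.49, -1.13 to 2.11). A change of more than 2-fold in either direction is therefore within the interval of each of these 3 genes.

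Os03g0181100 (52.6 to 419 FPKM at 6 h and 129 to 450 FPKM at 24 h, difference 0.52, 95% interval -0.84 to 1.88) and Os03g0180900 (27.4 to 174 and 41.0 to 199 FPKM, 0.24, -0.89 to 1.36) overlapped widely between the times. The remaining pair had lower means at 24 h. Os10g0392400 stood at 19.3 to 128 and 26.1 to 89.0 FPKM (-0.29, -1.34 to 0.76). Os09g0439200 had 117, 196, 163 and 104 FPKM at 6 h and 40.3, 172, 116 and 76.6 FPKM at 24 h. Its difference was -0.65 (-1.34 to 0.03, FDR = 0.16) as deposited and -0.55 (-1.24 to 0.14, FDR = 0.25) with scaling. Without 24 h replicate 2, the highest of its group, it was called lower on both scales (-0.97 and FDR = 0.029 as deposited).

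The libraries that were low or high were mostly the same across the JAZ genes. Replicate 1 of 6 h was the lowest of its group for 10 of 12 JAZ genes and replicate 1 of 24 h for 11 of 12. Replicate 2 was the highest at 6 h for 8 and replicate 3 the highest at 24 h for 9. The median deviation of the 12 genes from their means over the 8 libraries was -0.96, 0.78, 0.22 and -0.19 on the log2 scale in replicates 1 to 4 of 6 h and -0.85, 0.37, 0.52 and 0.00 in those of 24 h. The gene MYC2 (Os10g0575000), which encodes the type of transcription factor that JAZ proteins repress, was level, with 3.14, 7.70, 4.29 and 4.50 FPKM at 6 h and 3.56, 3.93, 4.30 and 4.10 FPKM at 24 h. Its difference was -0.20 (95% interval -0.55 to 0.16), and as for 10 of the JAZ genes, replicate 1 was the lowest library of 6 h.

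**Figure D4:**
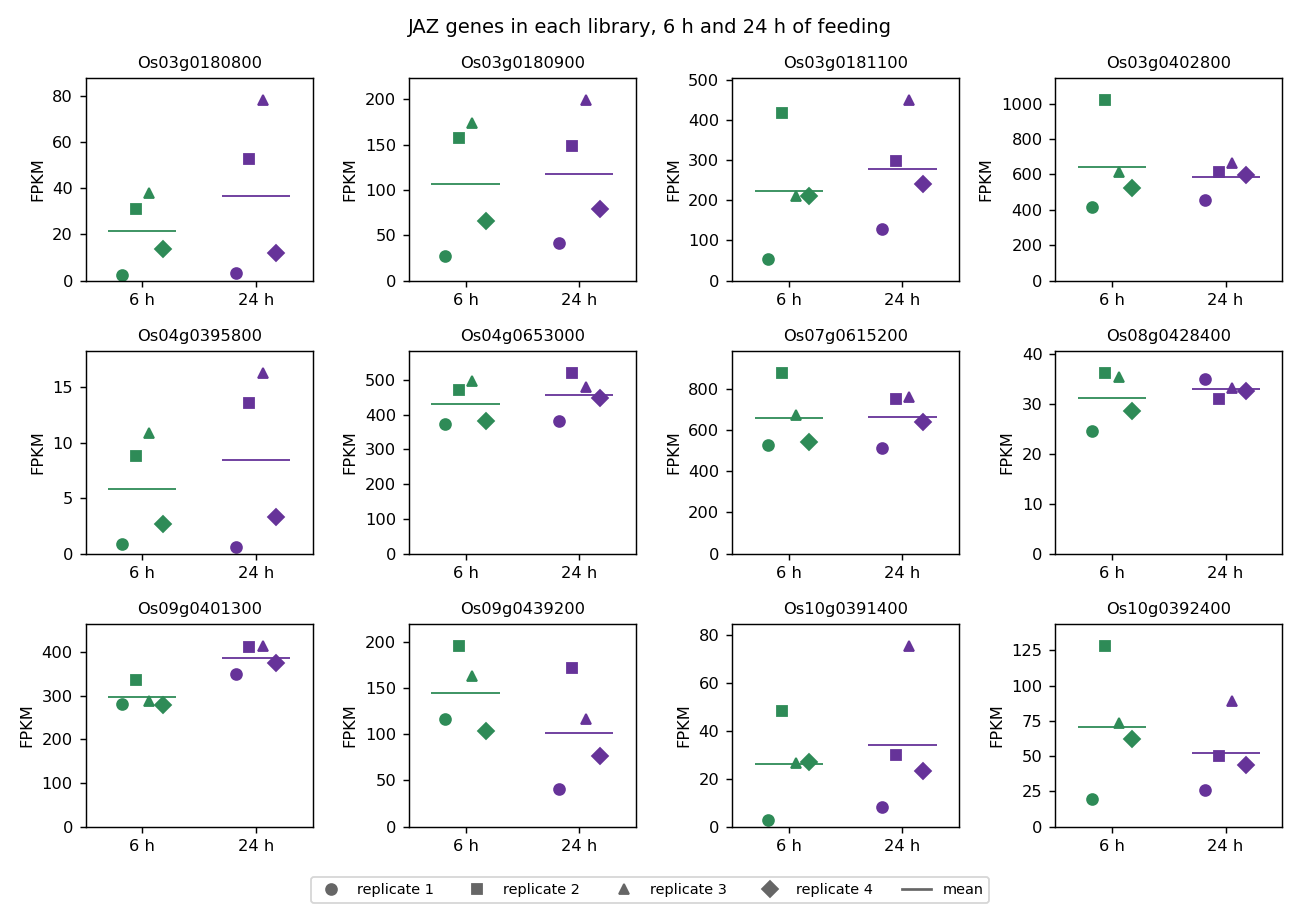
FPKM as deposited (vertical axis) of the 12 JAZ genes in each library of 6 h (green) and 24 h (purple), with a symbol for each replicate number and a line at the mean. Replicate 1 (circles) is the lowest of its group for 10 genes at 6 h and 11 at 24 h, and only for Os09g0401300 do all 24 h libraries lie above all 6 h libraries.

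The largest differences belonged to loci outside the named genes. They were taken from the 3686 loci that were called both ways, did not overlap between the groups and had a mean of at least 1 FPKM, 2 in each direction, and their identifiers carry no gene name in the sources used here. OS06G0591200 stood at 0.0639, 0.451, 0.452 and 0.576 FPKM at 6 h and at 9.72, 6.18, 11.7 and 9.80 FPKM at 24 h. It was near the limit of detection at 6 h, with 1 fragment in replicate 1, and reached only 1.37 FPKM at 12 h (difference 2.89, SE 0.18, FDR = 4.6e-09). OS08G0139700 had 81.8 to 102 FPKM at 6 h and 506 to 690 FPKM at 24 h (2.70, SE 0.31, FDR = 6.3e-06), with 484 FPKM already at 12 h. Its mean was 151 FPKM in the 0 h control and 224 FPKM after 1 h, so the 92.3 FPKM of 6 h was the lowest. The difference of 6 h from 0 h was not called (-0.50, limma FDR = 0.27).

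Among loci lower at 24 h, OS04G0282400 had 48.9 to 74.4 FPKM at 6 h and 2.42 to 3.91 FPKM at 24 h (difference -3.82, SE 0.34, FDR = 3.2e-07). Its mean was 30.1 FPKM at 0 h and 8.22 at 12 h, so that 24 h lay below the bagged control. OS07G0168300 had 45.6 to 93.8 FPKM at 6 h and 4.71 to 9.81 FPKM at 24 h (-3.02, SE 0.23, FDR = 3.7e-08). This locus had its highest mean at 6 h, at 62.3 FPKM. The means were 6.73 FPKM in the 0 h control, 16.5 FPKM after 1 h, 5.98 FPKM after 12 h and 6.78 FPKM after 24 h. It was already higher at 1 h than at 0 h (difference 1.18, limma FDR = 0.0071).

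**Figure D5:**
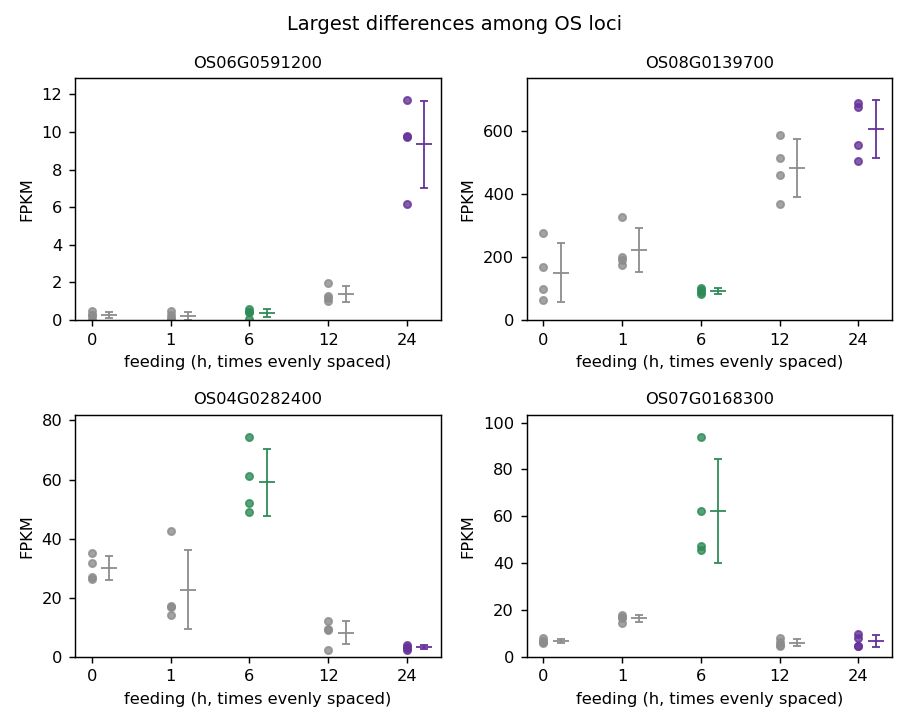
FPKM as deposited at each feeding time (horizontal axis, hours, evenly spaced) for the 2 loci with the largest difference in each direction between 24 h (purple) and 6 h (green), with 4 libraries per time as points and the mean and SD beside them. OS06G0591200 is above 6 FPKM at 24 h alone, and OS07G0168300 is above 45 FPKM at 6 h alone.

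The 12 h libraries were mostly closer to 24 h. They do not enter the difference between 24 h and 6 h, but they are part of the filter and of the shared fit that gave the calls. Among the 2454 loci lower at 24 h both ways, the mean of log2(FPKM + 1) at 12 h was nearer to that of 24 h than to that of 6 h for 2334 (95.1%), and with scaling for 2123 (86.5%). Among the 1827 higher at 24 h it was nearer to 24 h for 1358 (74.3%), and with scaling for 1578 (86.4%). Where the 0 h control lay moved with the scale over all loci called both ways. For the loci lower at 24 h it was nearer to 24 h for 57.3% as deposited and for 45.4% with scaling, and for those higher at 24 h for 37.1% and 49.9%. Past 2-fold the 0 h control was nearer to 6 h for most loci on either scale, and nearer to 24 h for 22.2% as deposited and 29.4% with scaling of the 153 higher loci and for 44.5% and 38.3% of the 308 lower ones. These shares are descriptions without a test, over loci chosen by their values at 6 h and 24 h.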

How the data were processed

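According to the study's methods and the labels, the authors filtered paired-end reads, aligned them to IRGSP-1.0 with HISAT2, counted them with featureCounts and deposited FPKM for 92858 identifiers in each of 20 libraries. Strandedness of the counting is not given in the sources used here, so overlapping, antisense or near-identical genes cannot be told apart. Identifiers with at least 0.5 FPKM in at least 4 of 20 libraries (24058) were tested with limma 3.58.1 (limma-trend, R 4.3.3) on log2(FPKM + 1), in one fit of 5 groups with 15 residual degrees of freedom, and FDRs were adjusted over all of them. Python 3.11.15 was used for summaries. The depth comes from fragment numbers computed back from FPKM, which came out whole for all 35755 of the 35755 identifiers above 0 (tolerance 0.01). The test was also run on simulated data with the same biological spread for every gene and no general shift between the groups. These data differ from that setting in both respects, so the run does not bear on the calls given here.

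Named genes are those whose identifiers the paper's text gives and JA genes of its pathway. Not every member of each JA gene family is listed, and further LOX, ACX and KAT genes of that pathway were left out. For other lists made for this work the sources at hand annotate no members, and they are not reported. Members and lists were chosen with earlier results of these data known. For the loci with the largest differences, 2 in each direction were named. Alternatives were upper-quartile factors, a pseudocount of 0.1, no filter, at least 10 fragments in each of the 8 libraries, the 8 libraries alone, a replicate block, limma-voom on recovered fragments, a minimum absolute log2 difference of 1, and each library left out. The limma-voom fit used the same median-of-ratios factors, so it is not independent of that scaling. Counts of loci called both ways under 3 of the alternatives were added after the data were seen.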

Additional observations from a re-analysis of the deposited data

Results flagged for a closer look

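Of 64 groups of 4 libraries of named genes checked for a value far from the others, 1 stood apart. The CaM gene Os03g0319300 had 377 FPKM in replicate 2 of 6 h, beside 315 FPKM in the nearest library and 309 FPKM in the lowest, so the gap made up 0.917 of the group's range, past Dixon's limit for 4 values. Chance flags about 1 in 20 groups. The gene was level without each library in turn (difference -0.03 to 0.12).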

How the results depend on the processing

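The number of OS loci called (5575) changed by over 1.5 times only where an absolute log2 difference over 1 was required, which left 463 (153 higher, 310 lower), by construction. The higher loci (1827) became 2790 with median-of-ratios factors, and the lower loci (3748) became 2454. With limma-voom, which uses the same factors, 5475 loci were called in all and 2898 of them were higher. The median difference over all tested identifiers, -0.07, reversed to 0.008 with median-of-ratios factors and moved to -0.014 with upper-quartile factors and -0.017 with no filter. The named genes lower at 24 h (4 as deposited) were 1 with either scaling and 2 with limma-voom. Of the JA genes, 2 were lower as deposited and 1 with either scaling, with the 8 libraries alone and with limma-voom. The WRKY genes higher at 24 h (1) were 2 with either scaling, with at least 10 fragments and with limma-voom. The cause of these moves was not tested beyond the scaling itself.

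Without each library in turn, 4405 to 5039 loci were called, 1451 to 1719 higher and 2910 to 3380 lower, and 3461 to 3992 both ways (1451 to 1719 higher, 1966 to 2273 lower). The named genes were 3 to 6 higher and 2 to 4 lower (2 without 24 h replicate 3), the JA genes 3 to 4 higher and 2 to 3 lower, and the JAZ genes 1 higher and 0 to 1 lower (1 without 24 h replicate 2). The WRKY genes higher at 24 h were 0 to 2, with 0 where replicate 1 of 6 h or replicate 2 or 3 of 24 h was left out and 2 without replicate 2 of 6 h. The median difference was -0.083 to -0.063. Single named genes lost a call in 12 cases and gained one in 5 when a library was left out. Under the other alternatives they lost one in 10 cases and gained one in 4, and none reversed under any alternative run.

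The labels do not say whether replicate numbers pair the samples, and the values do not settle it. The deviations of same-numbered libraries of 6 h and 24 h correlated at 0.242, 0.059, 0.114 and -0.003. Pairs of other numbers correlated at -0.243 to 0.106, and not every library correlated best with its own number. With the replicate number as a block, 5375 loci were called (1802 higher, 3573 lower), 4175 of them both ways. Of loci with a mean under 1 FPKM, 8.1% were called both ways, with a median SE of 0.138. At 1 to 10 FPKM 18.1% were called, with a median SE of 0.134. Counting error weighs more on low values, and its part in the lower share was not tested.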

Other observations

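Identifiers outside the OS loci, which the comparison above leaves out, were tested in the same fit. Of 3004 tested identifiers that begin with EPl, 134 were called both ways (4.46%), 85 higher and 49 lower at 24 h. Of a further class of 701, 87 were called both ways (12.4%), 37 higher and 50 lower. The OS loci stood at 21.0%, and the shares were not tested against each other.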
